A study of Mus musculus with 12 samples.

Results

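The transcripts of 6 keratin genes (Krt7, Krt8, Krt17, Krt18, Krt19 and Krt42) were followed in mouse embryonic stem cells (ESCs), the pluripotent cells of the early embryo kept in culture. RNA-seq had been made from 12 libraries in 3 groups of 4. ESCs labelled as Tfcp2l1 knockout and wild-type ESCs were both grown in 2i, a defined medium without serum. It held 3 µM CHIR99021, which blocks the kinase GSK3, 1 µM PD0325901, which blocks MEK, and 1000 units/mL of LIF, a cytokine that sustains self-renewal. Wild-type ESCs were also grown in medium with 15% fetal bovine serum (FBS), LIF at the same 1000 units/mL and neither inhibitor. Tfcp2l1 is a DNA-binding factor related to grainyhead, known for sustaining mouse ESCs. The labels name no parental line, no clone and no allele, and leave unsaid whether repeats were grown apart.

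Levels are the authors' deposited FPKM, the fragments of a transcript corrected for its length and for library size. The table held 54 genes named Krt with a number, among 23138 genes in all. The 6 were chosen by their FPKM in all 3 groups, as the expressed keratins, so that their being expressed is no result. Each reached 1 FPKM in at least 4 libraries. Krt19 was the nearest to that limit, with 7 libraries at 1 FPKM or more. Krt10, a keratin of the upper epidermis, lay just outside with 3 libraries at 1 FPKM or more and a highest value of 1.09 FPKM. Of the other 48 keratins, 42 stayed under 0.5 FPKM in every library and 11 were listed at 0 throughout.

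Keratins are the intermediate filament proteins of epithelial cells. A filament is built from pairs of an acidic type I and a basic type II keratin, and neither type forms filaments alone. In the mouse embryo Krt8 (type II) and Krt18 (type I) are the earliest keratins made, and they mark the trophectoderm, the outer epithelium of the blastocyst. Krt7 (type II) and Krt19 (type I) join them in simple and ductal epithelia. Krt17 and Krt42 are type I keratins of skin appendages such as hair and nail.

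The type II genes Krt7 and Krt8 lay on chromosome 15 and the type I genes Krt17, Krt19 and Krt42 on chromosome 11. Krt18, although type I, lay beside Krt8 on chromosome 15, with 23873 bases between them. Krt17 and Krt42 were separated by 1892 bases. In the deposited coordinates (mm9), Krt8 (NM_031170) ran from 101827142 to 101834773 and Krt18 (NM_010664) from 101858647 to 101862457 on chromosome 15, where Krt7 (NM_033073) ran from 101242834 to 101258237. On chromosome 11, Krt19 (NM_008471) ran from 100002126 to 100007233, Krt17 (NM_010663) from 100117531 to 100122303 and Krt42 (NM_212483) from 100124196 to 100131185. Each value covers a whole transcript, and exons were not measured separately.

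Promoters are shown because the 6 genes were low together in 2i and because 1 comparison is with cells labelled as Tfcp2l1 knockout. The RefSeq promoter table (GRCm38.p6) held 4 of the 6 genes. The 250 bases before the annotated start are given 5′ to 3′ on the gene's strand. Capitals mark CCNG followed by 6 bases of any kind and CCNG again, the spaced pair of half-sites known for Tfcp2l1, searched on both strands. The windows are Krt7 at chr15:101412153-101412402 (plus strand), Krt18 at chr15:102027966-102028215 (plus), Krt8 at chr15:102004343-102004592 (minus) and Krt42 at chr11:100269952-100270201 (minus).
Krt7: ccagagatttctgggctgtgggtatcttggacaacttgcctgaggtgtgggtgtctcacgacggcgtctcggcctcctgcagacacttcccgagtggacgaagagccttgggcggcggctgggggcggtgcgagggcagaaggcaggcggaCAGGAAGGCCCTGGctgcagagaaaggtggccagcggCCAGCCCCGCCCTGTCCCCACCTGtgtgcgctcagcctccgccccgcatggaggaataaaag
Krt18: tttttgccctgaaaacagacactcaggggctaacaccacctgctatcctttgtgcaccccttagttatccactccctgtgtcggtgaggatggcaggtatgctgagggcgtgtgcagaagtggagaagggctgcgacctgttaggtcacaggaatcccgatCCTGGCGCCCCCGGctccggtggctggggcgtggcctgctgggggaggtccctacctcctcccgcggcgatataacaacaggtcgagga
Krt8: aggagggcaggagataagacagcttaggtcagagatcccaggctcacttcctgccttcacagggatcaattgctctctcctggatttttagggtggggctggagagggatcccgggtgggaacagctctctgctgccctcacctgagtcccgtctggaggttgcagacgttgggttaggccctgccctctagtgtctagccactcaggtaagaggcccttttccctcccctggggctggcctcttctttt
Krt42: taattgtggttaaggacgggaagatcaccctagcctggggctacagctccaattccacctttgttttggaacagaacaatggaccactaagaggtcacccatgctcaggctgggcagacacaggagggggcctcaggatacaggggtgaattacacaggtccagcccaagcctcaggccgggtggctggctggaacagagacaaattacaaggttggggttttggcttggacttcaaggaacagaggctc

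The Krt7 window held 3 matches, starting at bases -99, -62 and -52 from the annotated start, of which those at -62 and -52 overlapped each other. The Krt18 window held 1 match, at -89, and the Krt8 and Krt42 windows held none. Of 32851 windows of this length, 24.9% held at least 1 match and 2.5% held 3 or more, so a match is common. The Krt7, Krt18, Krt8 and Krt42 windows were 66%, 60.4%, 58% and 54% G and C, against a median of 52.4% over all windows. No share of windows given here was matched for base content. The GC box GGGCGG, bound by Sp1 and related factors, occurred 4 times in the Krt7 window, where the copy starting at -56 overlapped both of the overlapping matches, and not in the other windows. It occurred in 32.7% of all windows. The AP-1 site TGANTCA occurred in none of the 4 windows and in 6.75% of all. Matches are letters in a sequence, not measured binding.

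Fragment counts were not used here. From the steps between the lowest FPKM values, 1 fragment was estimated to be worth so much that the libraries held 23600000 to 34400000 fragments, a rough figure because the steps were blurred. On that estimate Krt19 rested on 25 to 55 fragments per knockout library, 15 to 84 per library of wild type in 2i and 815 to 1303 per FBS library. Krt7 came to 60 to 123 fragments in knockout libraries, 208 to 605 in wild type in 2i and 1756 to 3548 in FBS. These Krt7 counts used a reference transcript of 4094 bases, against 1576 for Krt19, and may be too high. In knockout replicate 1 the authors' bounds were 0.294 and 0.675 FPKM for Krt7 at 0.488 FPKM (67 fragments). For Krt19 at 0.666 FPKM (35 fragments) they were 0.42 and 0.9, narrower for its level. The authors' bounds around Krt19 in the lowest library, wild type in 2i replicate 3, were 0.164 and 0.575 FPKM for a value of 0.377. For high values the bounds could lie below the value itself, as for Krt18 in FBS replicate 1 (147.7 FPKM, upper bound 135.5), so they were not used further.

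Of 2 pluripotency genes, Pou5f1 stood at 780 to 838 FPKM in the knockout, 843 to 992 in wild type in 2i and 705 to 866 in FBS. Nanog stood at 376 to 409 FPKM in the knockout, 549 to 607 in wild type in 2i and 197 to 220 in FBS, with no overlap between the groups. Tfcp2l1 stood at 76.1, 72, 83 and 84.7 FPKM in the knockout, 133.3, 143.2, 112.3 and 139.3 in wild type in 2i and 25.8, 37.1, 30.7 and 31.5 in FBS. The knockout libraries thus lay below wild type in 2i but kept Tfcp2l1 transcript, and a whole-transcript value cannot show the loss of single exons. Libraries also differed in keratins within groups. FBS replicate 2 stood apart for Krt17 and Krt42, and wild type in 2i replicates 2 and 3 were the highest and lowest of their group for all 6 keratins. Leaving these 3 libraries out in turn kept all 6 keratins called between 2i and FBS, with log2 changes of -2.77 to -2.46 for Krt7, -3.97 to -3.49 for Krt8, -4.17 to -3.81 for Krt18 and -3.90 to -3.58 for Krt19.

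Wild-type ESCs in 2i were set against wild-type ESCs in FBS, a comparison that the study made for gene set analysis. All 6 keratins were lower in 2i, by a log2 change of -1.90 to -3.95, with a median of -3.16 against 0.01 over all genes tested. Krt8, Krt18 and Krt19 had the deepest falls. Changes were tested with limma on log2(FPKM + 1) across 12219 genes, with Benjamini-Hochberg adjustment over all of them and 4 libraries per group. The scale understates changes of low genes. By that test 72.6% of all genes differed between these groups, 35.4% being lower in 2i and 37.2% higher, so that a call is common here. The ranges of the 2 groups did not overlap for any of the 6 keratins, as for 62.6% of all genes (30.6% with 2i lower). A log2 change of -3 or lower, as for Krt8, Krt18 and Krt19, occurred in 0.295% of all genes. Krt19 entered the test only through the FBS libraries, since 3 of the other 8 reached 1 FPKM, so that its fall was built into its selection.

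Krt18 was the most abundant keratin in every group. It stood at 6.54, 11.9, 5.1 and 6.57 FPKM in wild-type 2i libraries and at 147.7, 118.3, 145.1 and 97.3 FPKM in FBS. The groups were far apart, the highest 2i library being below the lowest FBS library by a wide margin. The means were 7.53 ± 3 and 127 ± 23.9 FPKM (SD, n = 4 each), so that 2i held 5.93% of the FBS level (log2 change -3.95, SE 0.22, limma adjusted p = 8.51e-09).

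Its type II partner Krt8 followed closely. Krt8 stood at 3.39, 6.72, 1.85 and 4.55 FPKM in wild-type 2i libraries and at 78.5, 59, 65.5 and 53.3 FPKM in FBS. The groups did not overlap, and the 4 libraries in 2i took the same order as for Krt18. Krt8 averaged 4.13 ± 2.05 FPKM in 2i and 64.1 ± 10.8 in FBS (6.44% of the FBS level, log2 change -3.74, SE 0.26, adjusted p = 5.54e-08). Part of its reads may be shared, since the Krt8 and Krt8-ps pseudogene transcripts of GENCODE vM21 were 98.6% identical over 941 aligned bases, and the sources used here do not give how such reads were divided.

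Krt19, the type I keratin that lacks the usual tail domain, was the lowest of the 6 in wild type in 2i. It stood at 0.451, 1.67, 0.377 and 1.15 FPKM in wild-type 2i libraries and at 25.7, 18.6, 27.6 and 22.1 FPKM in FBS. The groups did not overlap, and 2 of the 4 libraries in 2i were below 1 FPKM. The means were 0.912 ± 0.614 and 23.5 ± 4 FPKM, or 3.88% of the FBS level (log2 change -3.72, SE 0.19, adjusted p = 4.10e-09).

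Krt7, which pairs with type I keratins of simple epithelia, stood at 3.29, 4.66, 2.03 and 2.45 FPKM in wild-type 2i libraries and at 28.2, 22.6, 26.1 and 17.2 FPKM in FBS. All 2i values were below all FBS values. The level in 2i was 3.1 ± 1.16 FPKM and in FBS 23.5 ± 4.78, so that 2i kept 13.2% (log2 change -2.60, SE 0.19, adjusted p = 7.56e-08).

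The neighbours Krt17 and Krt42 had the smallest log2 changes of the 6, although their 95% intervals (-2.45 to -1.36 and -2.47 to -1.45) overlapped that of Krt7 (upper end -2.19). Krt17, a keratin induced in injured skin, stood at 2.33, 2.49, 1.51 and 2.17 FPKM in wild-type 2i libraries and at 8.22, 22.3, 7.59 and 8.83 FPKM in FBS. The FBS group was uneven, replicate 2 being far above the rest, but none of its values reached down to the 2i libraries. Krt17 averaged 2.13 ± 0.431 FPKM in 2i and 11.7 ± 7.07 in FBS (log2 change -1.90, SE 0.25, adjusted p = 1.64e-05). Without FBS replicate 2 the FBS mean was 8.21 ± 0.623 FPKM and the log2 change -1.57 (adjusted p = 1.47e-07).

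Krt42, closely related to Krt17 in sequence, stood at 6.24, 6.64, 4.95 and 6.04 FPKM in wild-type 2i libraries and at 21.4, 45.8, 15.3 and 30 FPKM in FBS. FBS replicate 2 was again the highest, and the groups did not overlap. The means were 5.97 ± 0.719 and 28.1 ± 13.2 FPKM (log2 change -1.96, SE 0.24, adjusted p = 7.38e-06), and without FBS replicate 2 the log2 change was -1.70. The reference transcripts of Krt17 and Krt42 were 84.2% identical over 1081 aligned bases, with a longest identical run of 53 bases, so that some short reads could fit both genes.

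**Figure D1:**
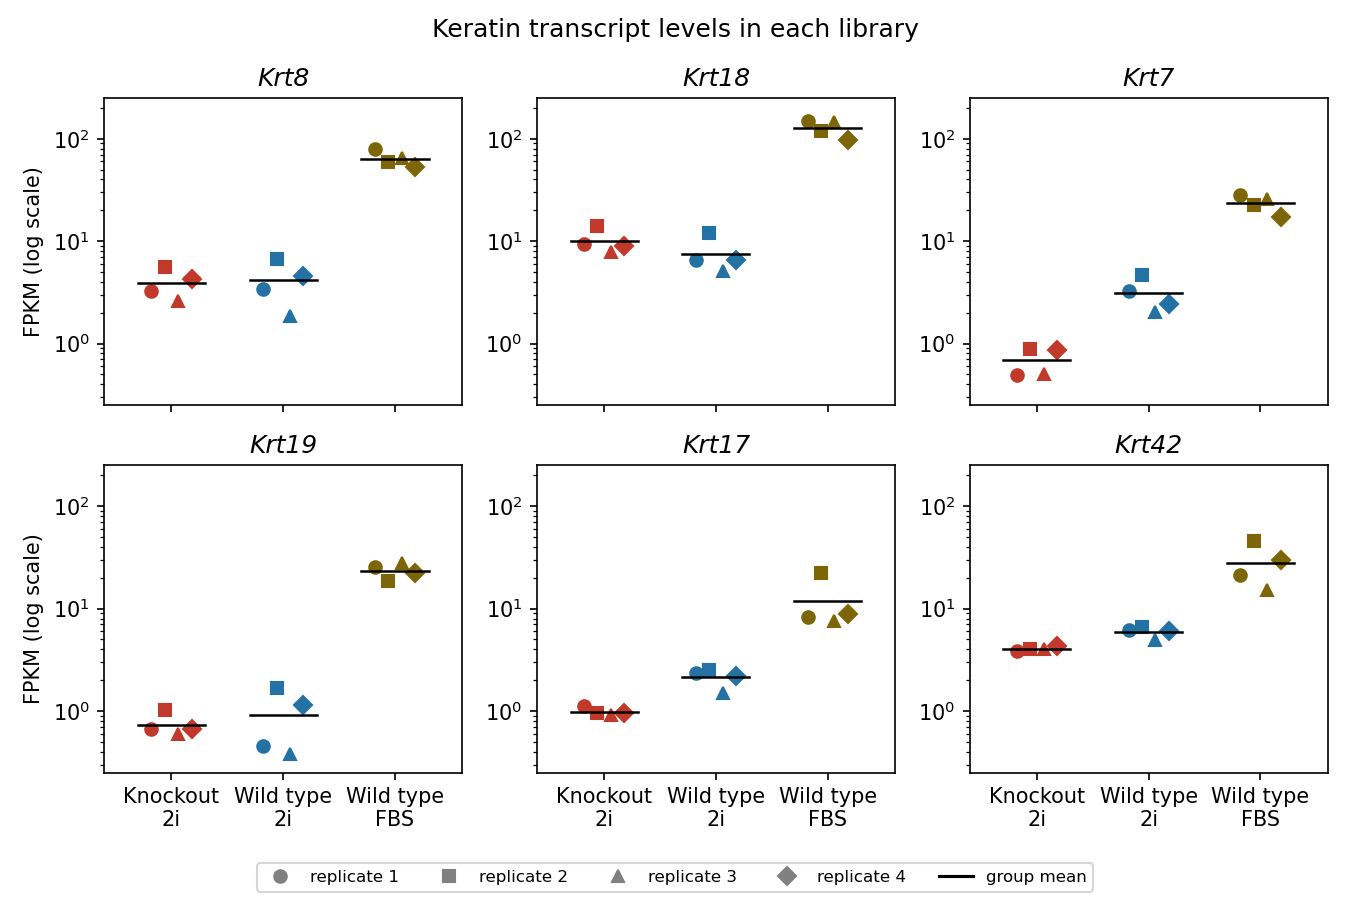
FPKM of each keratin (log axis) in the 4 libraries of the knockout in 2i, wild type in 2i and wild type in FBS, with a marker shape for each replicate and a line at the group mean. The FBS libraries lie above the 2i libraries for all 6 genes, and the knockout lies below wild type in 2i without overlap for Krt7, Krt17 and Krt42.

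The Tfcp2l1 knockout was set against wild type in the same 2i medium, to find transcripts that depend on Tfcp2l1 there. Krt7 fell in the knockout, to 22.1% of its wild-type level, and it was the 1 keratin of 6 that passed the test. Krt17 and Krt42 were lower in every knockout library than in any library of wild type in 2i but did not pass. Krt8, Krt18 and Krt19 overlapped between the groups. Over all genes 45.5% were called in this comparison, 21.5% lower and 24% higher, so that 1 of 6 is no more than the background share. Groups did not overlap for 3 of the 6 keratins, against 44.3% of all genes (20.5% with the knockout lower).

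Krt7 stood at 0.488, 0.877, 0.504 and 0.872 FPKM in the knockout and at 3.29, 4.66, 2.03 and 2.45 FPKM in wild-type 2i libraries. Every knockout library was below 1 FPKM and every library of wild type in 2i above 2 FPKM. The means were 0.685 ± 0.219 and 3.1 ± 1.16 FPKM (SD, n = 4 each; log2 change -1.25, SE 0.19, limma adjusted p = 0.000215). The 95% interval of the log2 change was -1.66 to -0.84. The gene passed the filter on low values through wild type in 2i and FBS, since no knockout library reached 1 FPKM.

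Krt17 stood at 1.11, 0.957, 0.92 and 0.95 FPKM in the knockout, against 2.33, 2.49, 1.51 and 2.17 FPKM in wild-type 2i libraries. The knockout libraries were close together and all below the lowest library of wild type in 2i. The log2 change was -0.64 (SE 0.25) with a 95% interval of -1.19 to -0.10, and the adjusted p was 0.0509.

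Krt42 stood at 3.83, 4.02, 4.03 and 4.35 FPKM in the knockout, against 6.24, 6.64, 4.95 and 6.04 FPKM in wild-type 2i libraries. Its log2 change was -0.46 (SE 0.24, 95% interval -0.97 to 0.05, adjusted p = 0.132). The spread used in these tests is shared over the 3 groups, and leaving out FBS replicate 2 lowered the SE to 0.10 for Krt17 and 0.15 for Krt42. The adjusted p without that library was 0.000335 for Krt17 and 0.0317 for Krt42, and with the 8 libraries of the comparison alone 0.00113 and 0.00185. The count of keratins called was then 3 of 6, with log2 changes as before. Leaving out FBS replicate 3 also gave 3 calls, with 0.0445 for Krt17 and 0.0478 for Krt42, and leaving out wild type in 2i replicate 3 gave 2, with 0.0365 for Krt17. Without wild type in 2i replicate 2 the log2 change of Krt17 was -0.59 (adjusted p = 0.111).

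Krt18 stood at 9.39, 14, 7.76 and 9.04 FPKM in the knockout and at 6.54, 11.9, 5.1 and 6.57 FPKM in wild-type 2i libraries. The groups overlapped, although the 4 knockout libraries averaged higher, at 10.1 ± 2.73 against 7.53 ± 3 FPKM. Each knockout library also lay above the library of wild type in 2i with the same replicate number, a pairing that no label states. The log2 change was 0.40 (SE 0.22, 95% interval -0.08 to 0.88, adjusted p = 0.157). Without wild type in 2i replicate 2, the highest library of its group, the log2 change was 0.62 and the adjusted p 0.0173, and without replicate 3, the lowest, they were 0.26 and 0.35.

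Krt8 stood at 3.23, 5.57, 2.63 and 4.28 FPKM in the knockout and at 3.39, 6.72, 1.85 and 4.55 FPKM in wild-type 2i libraries, so the groups interleaved. Its log2 change was -0.0019 with a 95% interval of -0.57 to 0.56 (adjusted p = 0.996), and its sign turned with the library left out. Krt19 stood at 0.666, 1.02, 0.594 and 0.663 FPKM in the knockout and at 0.451, 1.67, 0.377 and 1.15 FPKM in wild-type 2i libraries. Its log2 change was -0.09 with a 95% interval of -0.51 to 0.33 (adjusted p = 0.726), and it turned to 0.09 without wild type in 2i replicate 2. The intervals leave room for changes of the size seen for Krt42 in either direction for Krt8, and downward for Krt19.

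**Figure D2:**
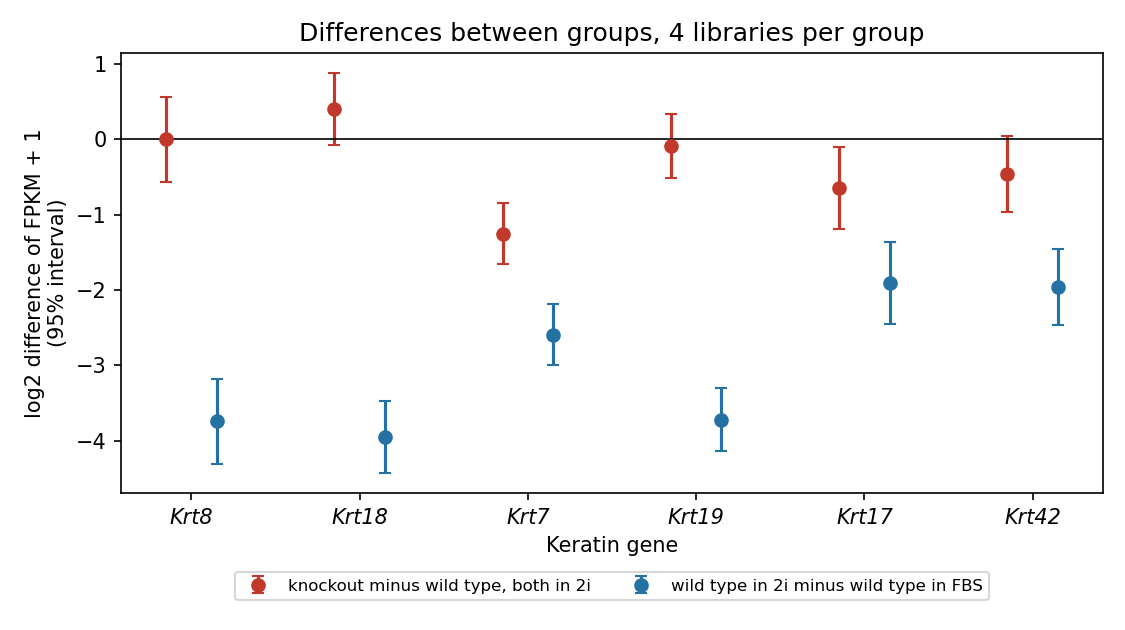
Difference of log2(FPKM + 1) for each keratin, with the knockout comparison and the medium comparison (2i minus FBS, both wild type) side by side, and with 95% intervals from limma over 4 libraries per group. In the knockout comparison the interval of Krt7 runs from -1.66 to -0.84, that of Krt17 from -1.19 to -0.10 and the other 4 include 0, while in the medium comparison all 6 intervals end at or below -1.36.

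Levels therefore took the order FBS, wild type in 2i and knockout for Krt7, Krt17 and Krt42, with no overlap between neighbours. The step from wild type in 2i to the knockout passed the test only for Krt7. Of all genes, 20.5% lay lower in the knockout and 30.6% lower in 2i than in FBS without overlap. The share with both steps was not counted. For Krt8, Krt18 and Krt19 FBS came highest, and the knockout and wild type in 2i overlapped and did not pass the test. Both comparisons share the wild-type libraries in 2i, so their changes are not independent of each other.

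The make-up of the keratin pool differed between groups, which is described here without a test. The 6 genes together reached 20.4 ± 4.33 FPKM in the knockout, 23.8 ± 7.6 in wild type in 2i and 278 ± 34.6 in FBS. They made up 82.1% to 88.9% of all summed keratin FPKM in the knockout, 88% to 92.5% in wild type in 2i and 98.1% to 98.6% in FBS. Krt18 led in each group, with 49.2%, 31.7% and 45.7% of the sum of the 6 in the knockout, wild type in 2i and FBS. In wild type in 2i Krt42 came next, and in FBS Krt8. In the knockout Krt42 (4.06 ± 0.216 FPKM) and Krt8 (3.93 ± 1.29) could not be put in order, since without replicate 3 they averaged 4.07 and 4.36 FPKM.

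Krt8 and Krt18 together held 63.2% to 74% of the 6 in the knockout, 43.9% to 54.7% in wild type in 2i and 61.9% to 73.3% in FBS. The wild-type libraries in 2i thus had the lowest share, with no overlap with the other groups. Among type II genes, Krt7 stood at 0.151 to 0.204 of the Krt8 level in the knockout, 0.538 to 1.1 in wild type in 2i and 0.323 to 0.398 in FBS. These 3 ranges were separate, with wild type in 2i highest and the knockout lowest. The Krt8 level was 0.339 to 0.474 of the Krt18 level in the knockout, 0.362 to 0.693 in wild type in 2i and 0.451 to 0.548 in FBS, so that the groups overlapped. Summed over type, type II transcripts stood at 0.287 ± 0.0538 of type I in the knockout, 0.423 ± 0.073 in wild type in 2i and 0.459 ± 0.0528 in FBS, type I being in excess in every library.

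**Figure D3:**
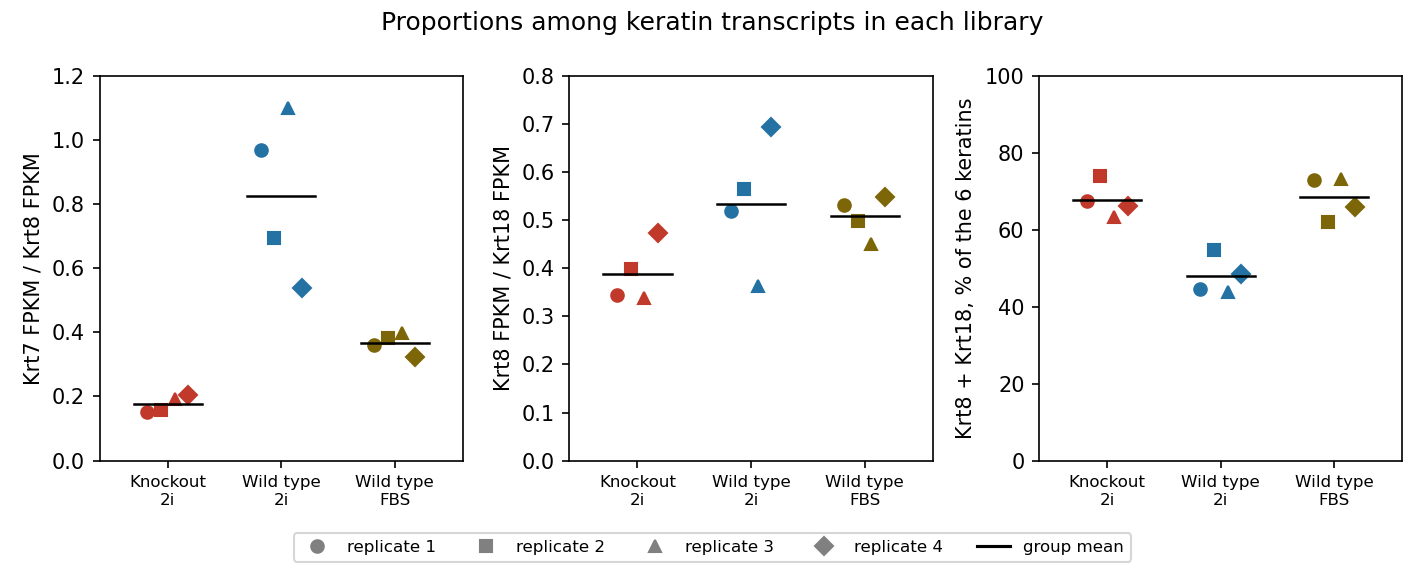
Krt7 FPKM over Krt8 FPKM, Krt8 FPKM over Krt18 FPKM, and the share of Krt8 plus Krt18 in the sum of the 6 keratins, in each library of the knockout in 2i, wild type in 2i and wild type in FBS, with a line at the group mean. The ratio of Krt7 to Krt8 is 0.151 to 0.204 in the knockout and 0.538 to 1.1 in wild type in 2i, and the share of Krt8 plus Krt18 is lowest in wild type in 2i.

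Within groups, Krt8 and Krt18 tended to deviate from the mean in the same libraries. Their signs were opposite in replicate 4 of the knockout (0.14 and -0.11 in log2(FPKM + 1)) and of wild type in 2i (0.21 and -0.11). Krt17 and Krt42 deviated together in wild type in 2i and in FBS, except in FBS replicate 4 (-0.24 and 0.20 in log2(FPKM + 1)). In the knockout both stayed near the mean, with opposite signs in replicates 1 (0.09 and -0.07) and 4 (-0.02 and 0.08). On the log2(FPKM + 1) scale, wild type in 2i replicate 2 lay above its group mean by 0.68 for Krt8, 0.66 for Krt18, 0.54 for Krt19 and 0.50 for Krt7, but by 0.14 for Krt42 and 0.17 for Krt17. Replicate 3 of that group lay below its mean for all 6, at -0.76 for Krt8 and -0.22 for Krt42. Knockout replicate 2 was likewise high for Krt8 (0.45) and Krt18 (0.47) and near the mean for Krt17 (-0.02) and Krt42 (-0.01). In FBS replicate 2 the pattern was the other way round, with Krt17 at 1.01 and Krt42 at 0.79 and with Krt8 at -0.10 and Krt18 at -0.08.

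**Figure D4:**
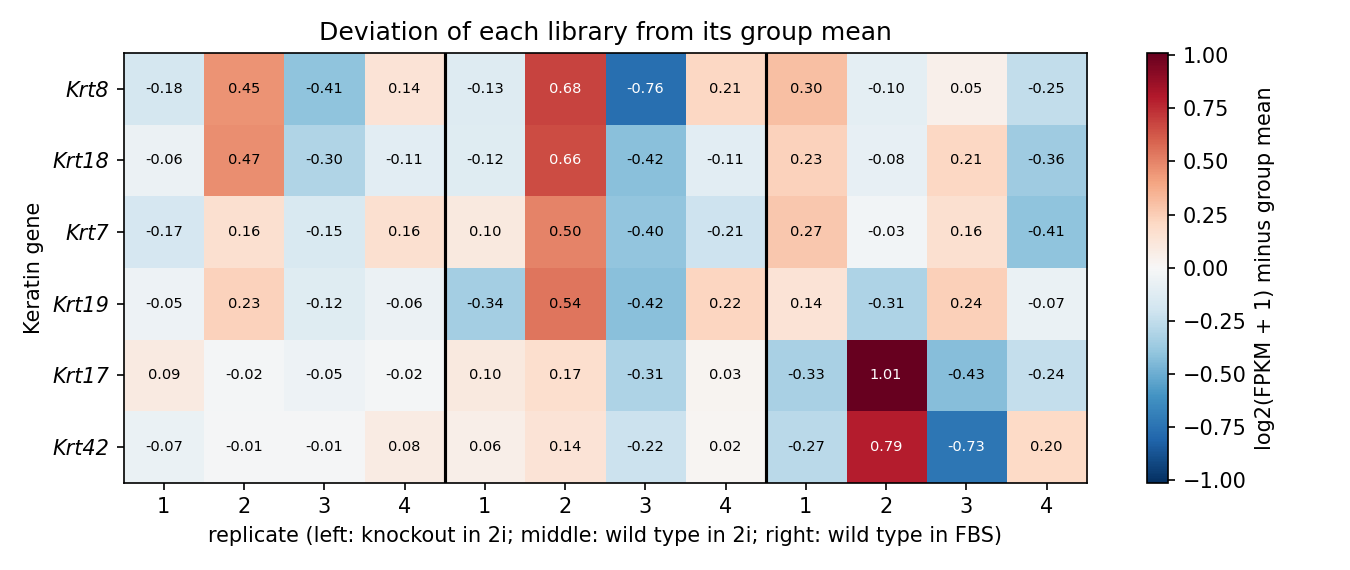
Deviation of log2(FPKM + 1) from the group mean for each keratin (rows) and library (columns, with replicates of the knockout in 2i, wild type in 2i and wild type in FBS from left to right). Krt8 and Krt18 are high in replicate 2 of both 2i groups (0.45 to 0.68), while Krt17 and Krt42 are high in FBS replicate 2 (1.01 and 0.79).

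Over the 12 libraries, Pearson's r of log2(FPKM + 1) is given as a description with no test, since the libraries form 3 groups and the FBS group sets most of it. Krt8 was most like Krt19 (0.993) and Krt18 (0.991), and Krt17 like Krt42 (0.986), while Krt7 stood at 0.913 to 0.946 with the other keratins. Among all tested genes, the 5 nearest to Krt7 were AI661453, Arhgef16, Ptpn3, the desmosomal cadherin Dsc2 and the tight junction claudin Cldn7, with r from 0.996 to 0.988. Cldn7 averaged 3.41 FPKM in the knockout, 6.22 in wild type in 2i and 31.1 in FBS. Beside other keratins, the nearest to Krt8 were the urokinase receptor Plaur, the myosin heavy chain Myh9 and the kinase Tnk1. The nearest to Krt19 were Utf1, Cldn3, Nnat and Pom121, and those to Krt18 were Fam83g, the pyruvate dehydrogenase kinase Pdk1, the GTPase Rhou and Kcnk6. Plaur averaged 1.86 FPKM in the knockout, 1.7 in wild type in 2i and 19.5 in FBS. Near both Krt17 and Krt42 were Urah and Heatr5a, with Fhl1 and Trim47 near Krt17 and Hip1 and Dnajc21 near Krt42.

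Keratins outside the 6 stayed low but were not all flat, and none passed the filter, so none was tested. Krt14, a keratin of basal epidermis, stood at 0.222 to 0.348 FPKM in the knockout, 0 to 0.0507 in wild type in 2i and 0.821 to 1.37 in FBS. Krt20, of intestinal epithelium and urothelium, stood at 0.588 to 0.79 FPKM in the knockout, 0.11 to 0.319 in wild type in 2i and 0.32 to 0.655 in FBS. For both genes the knockout ranges lay above those of wild type in 2i. Krt10 stood at 0.935 to 0.953 FPKM in the knockout, 0.787 to 1.09 in wild type in 2i and 0.719 to 1.05 in FBS, so that the groups overlapped. The Krt14 and Krt17 reference transcripts were 90.9% identical over 948 aligned bases, so that low Krt14 values may hold Krt17 reads. Krt17 itself was lower in the knockout (0.92 to 1.11 FPKM) than in wild type in 2i (1.51 to 2.49), the other way from Krt14. Sharing of reads was not tested.

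Genes that anchor or accompany keratin filaments were counted from lists, beside a median log2 change of 0.01 over all genes in both comparisons and the shares of all genes called lower (21.5% in the knockout, 35.4% in 2i) and higher (24% and 37.2%). Of 12 tested desmosome and plakin genes, which tie keratin filaments to the membrane, 4 fell and 2 rose in the knockout (median -0.13), and 9 were lower and 1 higher in 2i than in FBS (median -0.63). Plakoglobin, Jup, fell to 14.9 ± 0.982 FPKM in the knockout, against 30.9 ± 2.17 in wild type in 2i (adjusted p = 4.40e-07), and did not pass between 2i and FBS. The cadherin Dsg2 fell to 12.8 ± 1.16 FPKM in the knockout, against 22.8 ± 2.45 in wild type in 2i, and it alone of the list was higher in 2i than in FBS (7.04 ± 0.682). Desmoplakin, Dsp, which binds keratin filaments directly, averaged 1.43 FPKM in the knockout, 2.42 in wild type in 2i and 6.23 in FBS, and Pkp2 averaged 5.26, 4.16 and 20.8 FPKM in that order.

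Of 27 tested genes of simple epithelia, 12 fell and 4 rose in the knockout (median log2 change -0.13), and 21 were lower and 4 higher in 2i than in FBS (median -0.93). The splicing factor Esrp1 averaged 1.32 ± 0.45 FPKM in the knockout, 0.197 ± 0.102 in wild type in 2i and 25.6 ± 1.3 in FBS. Cldn6 rose in the knockout, to 16.8 ± 1.14 FPKM against 5.69 ± 0.495 in wild type in 2i. The matriptase gene St14 and its inhibitor Spint1 fell in the knockout (log2 change -1.70 and -2.08). E-cadherin, Cdh1, did not pass between 2i (121 FPKM) and FBS (118 FPKM).

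Other intermediate filament genes moved in both directions. Of 12 tested, 5 rose and 2 fell in the knockout (median log2 change 0.16), and 4 were higher and 7 lower in 2i than in FBS (median -0.24). The neurofilament genes Nefl and Nefm fell in the knockout, to 5.93 ± 1.24 and 2.35 ± 0.981 FPKM, against 25.5 ± 7.35 and 13.5 ± 2.86 in wild type in 2i. The internexin gene Ina averaged 2.79 ± 0.301 FPKM in the knockout, 0.881 ± 0.162 in wild type in 2i and 27.2 ± 3.42 in FBS, while Nefm was higher in 2i than in FBS (1.25 FPKM). The nuclear lamin Lmnb1 did not pass in the knockout (158 against 161 FPKM).

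Of 17 tested genes for transcription factors known to act on keratin genes, 7 rose and 3 fell in the knockout (median log2 change 0.35), and 5 were higher and 7 lower in 2i than in FBS (median -0.17). The trophectoderm factor Cdx2 rose to 3.54 ± 0.428 FPKM in the knockout, against 0.666 ± 0.0682 in wild type in 2i, and Gata3 to 2.44 ± 0.104, against 0.742 ± 0.17. Tfap2c averaged 41.4 FPKM in the knockout, 26.8 in wild type in 2i and 65 in FBS. Klf4 was higher in 2i (264 ± 63.8 FPKM) than in FBS (91.9 ± 11.5). The AP-1 gene Fos did not pass between 2i and FBS (84 ± 53 against 76.4 ± 17.3 FPKM).

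**Figure D5:**
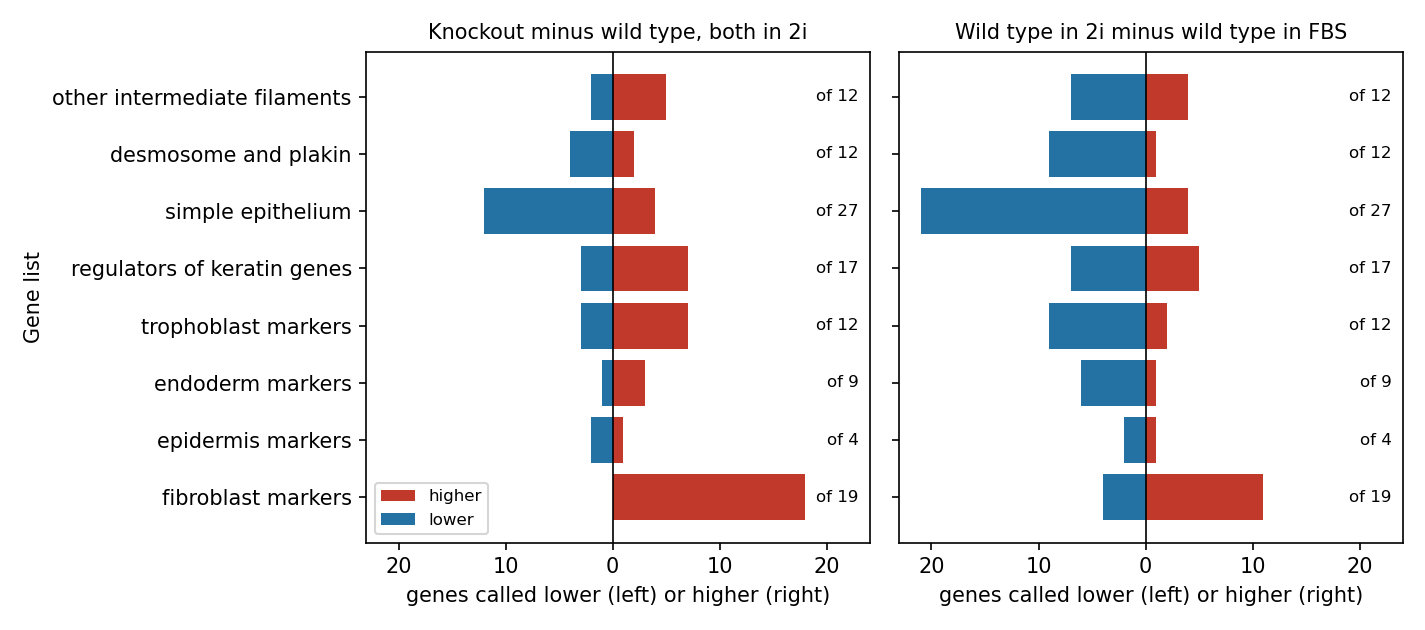
Number of tested genes called lower (bars to the left) or higher (bars to the right) in each list, for the knockout against wild type in 2i and for 2i against FBS in wild type, with the number tested beside each bar. Simple epithelium genes were 12 lower and 4 higher of 27 in the knockout and 21 lower and 4 higher of 27 in 2i, and fibroblast markers were 18 higher of 19 in the knockout. The lists of trophoblast markers and of regulators of keratin genes share genes.

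Markers of other cell types were measured because the keratins also occur in trophoblast, endoderm and epidermis, and because in bulk RNA fewer cells of a type and less RNA per cell cannot be told apart. Trophoblast markers summed to 87.9 to 97.9 FPKM per library in the knockout, 69.1 to 88.9 in wild type in 2i and 135 to 159 in FBS. Of 12 tested, 7 rose and 3 fell in the knockout, and 2 were higher and 9 lower in 2i than in FBS. The trophoblast list shares genes with that of transcription factors above, among them Cdx2, Gata3 and Tfap2c, so their counts are not separate observations. Elf5, Tpbpa and Prl3d1 stayed at or under 0.367 FPKM in every library. Others of the list were present: Tfap2c reached 73 FPKM, Esx1 20.2, Eomes 4.07 and Cdx2 3.83 in their highest libraries. Hand1 averaged 0.5 FPKM in the knockout, 0.209 in wild type in 2i and 12.3 in FBS.

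Endoderm markers summed to 372 to 519 FPKM in the knockout, 431 to 540 in wild type in 2i and 223 to 270 in FBS, mostly from Sparc. Of 9 tested, 3 rose and 1 fell in the knockout, and 1 was higher and 6 lower in 2i than in FBS. Afp, Ttr and Hnf4a stayed at or under 0.619 FPKM, but Gata4 reached 2.88 and Gata6 1.56 FPKM in their highest libraries. Gata4 averaged 2.51 FPKM in the knockout, 1.89 in wild type in 2i and 1.66 in FBS, and rose in the knockout (limma adjusted p = 0.0296). Amn averaged 0.566 FPKM in the knockout, 0.346 in wild type in 2i and 2.98 in FBS, and Dab2 averaged 2.33, 1.47 and 3.52 FPKM in that order. Lama1 went the other way in the knockout, with 2.28 ± 0.212 FPKM against 6.04 ± 2.32 in wild type in 2i (limma adjusted p = 0.00444). Epidermis markers summed to 67 to 79.9 FPKM in the knockout, 48.5 to 72.6 in wild type in 2i and 90.4 to 138 in FBS, mostly from Sfn. Of 4 tested, 1 rose and 2 fell in the knockout, and 1 was higher and 2 lower in 2i than in FBS. Trp63, Ivl and Dsg3 stayed under 0.2 FPKM. What part trophoblast, endoderm and epidermis cells had in the keratin differences was not tested.

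Fibroblast markers summed to 397 to 673 FPKM in the knockout, 214 to 346 in wild type in 2i and 125 to 184 in FBS. Of 19 tested, 18 rose and none fell in the knockout (median log2 change 0.85), and 11 were higher and 4 lower in 2i than in FBS. Tagln was among those lower in 2i, with 4.86 ± 1.12 FPKM against 34.7 ± 9.48 in FBS (log2 change -2.59, limma adjusted p = 4.32e-08). The list thus held genes that moved in opposite directions between the media. The collagen Col6a1 rose to 16.7 ± 4.48 FPKM in the knockout, against 7.37 ± 1.68 in wild type in 2i, and Col3a1 averaged 94 FPKM in the knockout, 51.8 in wild type in 2i and 5.21 in FBS. With their mean log2 level in the model, the log2 change in the knockout was -1.26 for Krt7 (adjusted p = 0.0334), -0.31 for Krt17 (0.694) and -0.21 for Krt42 (0.787), from limma in each case. The log2 changes between 2i and FBS were then -1.65 to -3.81, and all 6 passed. The mean marker level did not overlap between groups: 3.54 to 4.22 in the knockout, 2.84 to 3.38 in wild type in 2i and 2.36 to 2.73 in FBS. This fit therefore cannot tell fibroblast level from genotype or medium. In the knockout comparison it raised the SE from 0.19 to 0.35 for Krt7 and from 0.25 to 0.45 for Krt17.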

How the data were processed

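Total RNA (Trizol) went into Illumina TruSeq libraries, per the labels' protocols. CASAVA 1.8.2 and Cufflinks (version not given) and build mm9 are named in the submitters' processing notes, and no aligner is given there. The authors deposited FPKM values with bounds for 30761 transcript entries, per the file headers. Symbols from RefSeq (GRCm38.p6) and GENCODE vM21 matched 98.8% of entries, and entries of a symbol were summed. Genes with a failed estimate (7) were left out.

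The 12219 genes that reached 1 FPKM in 4 or more libraries were tested on log2(FPKM + 1) with limma 3.58.1 in R 4.3.3, with 1 mean per group over all 12 libraries, eBayes with a trend and two-sided tests. An adjusted p under 0.05 was called. Since separate cultures are not stated, p-values reflect only how these samples vary, which may be technical variation. The number of fragments was estimated from the most frequent step of low FPKM values times transcript length. The model was tested on simulated data. Python 3.11.15 and pandas 2.3.3 were used.

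The keratins and gene lists were chosen with earlier results of these data known. Genes named beside the 6 were, by rule, those of the lists with the smallest adjusted p, the highest not called, and the 5 most correlated with each keratin. Krt10, Krt14, Krt20 and the markers given as near 0 or by their highest library were chosen after their values were seen, as were Cldn7 and Plaur among the correlated genes and Pou5f1 and Nanog. Alternatives were other pseudocounts, filters, scalings, 8 libraries, a replicate block, the highest entry per symbol, a fibroblast covariate and leaving out each library.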

Additional observations from a re-analysis of the deposited data

Results flagged for a closer look

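Among 21 sets of 4 libraries (the 6 keratins and Tfcp2l1 in 3 groups), 2 held a library far from the others of its group by Dixon's test at the 95% level, where chance gives about 1 in 20. Krt17 was at 22.3 FPKM in FBS replicate 2, with a gap to the next library of 0.916 of the group's range. Krt19 was at 1.02 FPKM in knockout replicate 2, with a gap of 0.831 of the range.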

How the results depend on the processing

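All 138 values of the 6 keratins between 2i and FBS kept their direction and their call under the alternatives. In the knockout comparison 116 of 138 did so, and no call was lost. The number of keratins called there was 1, and 2 with a pseudocount of 0.1 or 0.01, with TPM, median-ratio or quantile scaling or with the replicate block, and 3 with the 8 libraries of the comparison alone. Leaving out a library gave 1 to 3. Krt17 passed in each of these 7 fits of all libraries or 8 of them, with log2 changes of -1.02 (pseudocount of 0.1), -1.08 (0.01), -0.85 (TPM), -0.66 (median-ratio), -0.69 (quantile), and -0.64 with the replicate block and with the 8 libraries, against -0.64. Its adjusted p lay between 0.000335 and 0.111 when a library was left out, with log2 changes of -0.75 to -0.59, was 0.127 with no filter on low values, and was 0.694 with the fibroblast covariate. Krt42 passed with the 8 libraries (-0.46) and had log2 changes of -0.53 to -0.41 without single libraries. Krt18 had 0.24 to 0.62. Krt8 turned to 0.0168 with a pseudocount of 0.1, 0.0199 with 0.01 and 0.0333 as TPM, and lay between -0.25 and 0.23 without single libraries. Krt19 lay between -0.23 and 0.089. Krt7 passed under every alternative run, with -2.0 for a pseudocount of 0.1, -2.15 for 0.01 and -1.68 as TPM, against -1.25, and with -1.38 to -1.08 without single libraries. The fits with 8 libraries or without FBS replicate 2 leave out that library's spread. FPKM summed to 347772 to 358340 per library, well under the fixed sum of TPM. An added 1 therefore weighs less on TPM, as with a smaller pseudocount. The cause of these shifts was otherwise not tested. The number of all genes called in the knockout was 5561, and 1893 with the fibroblast covariate, whose level did not overlap between the groups.

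Libraries of the knockout and of wild type in 2i with the same replicate number had correlations of their deviations of 0.055, 0.257, 0.216 and 0.19, and 3 of 4 correlated best with their own number, but 1 pair lay under 0.1 and the numbers were not taken as pairs. With the replicate block 2 keratins were called in the knockout, Krt17 with an adjusted p of 0.0329, and 5530 genes in all. Krt18 had a limma adjusted p of 0.102 in that fit, which also spanned the FBS libraries. A block over the 2i libraries alone was not fitted. Low values limit Krt7, Krt17 and Krt19 in 2i, which rest on few fragments.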
